A study of Mus musculus with 12 samples.

Results

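The data described here are the 3 control testes and the 3 control ovaries harvested at E14.5 (E, embryonic day) in a series of 12 mouse fetal gonad arrays, which were compared over the autosomal genes. The 6 samples were chosen by their labels, without regard to any measured value, and probes on the X and Y chromosomes were left out, because their levels also follow the number of sex chromosomes. Of 27372 autosomal genes on the array, 17756 passed the filter on dim probes and were tested, out of 18669 genes of any chromosome that passed it and 28871 on the array in all.

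The study asked how BMP signalling through SMAD4 and retinoic acid signalling through STRA8 set the sex of fetal germ cells, with control gonads of both sexes as the reference for mutant ovaries. Each array measured the RNA of 1 pair of gonads, labelled with a single dye on a whole-genome oligonucleotide array. Tamoxifen was given at E9.5 and E10.5. Every control embryo was Stra8+/-, so 1 copy of the meiotic gene *Stra8* was absent from testes and ovaries alike. Control testes 1, 2 and 3 and control ovary 1 were Smad4Flox/+ StellaMerCreMer, and so carried 1 floxed copy of *Smad4* beside a tamoxifen-inducible Cre that is driven in germ cells by the *Stella* control element. Control ovary 2 was Smad4Flox/+ without the Cre, and control ovary 3 was Smad4Flox/Flox without the Cre. The control ovaries therefore did not share a genotype, whereas the control testes did, and for 2 of the 3 ovaries the effect of sex cannot be told apart from that of the Cre.

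By this stage the fetal gonad has taken its sex. In the testis, Sertoli cells have enclosed the germ cells in cords and Leydig cells between the cords make androgens, while the germ cells stop dividing and enter a male programme that includes the RNA-binding protein NANOS2. In the ovary, pregranulosa cells rely on WNT signalling and the transcription factor FOXL2, and germ cells respond to retinoic acid by turning on *Stra8* and entering the prophase of meiosis. In whole-gonad RNA, fewer cells of a type and less RNA per cell cannot be told apart.

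A level here is the log2 of the array signal minus the 75th percentile of that array, so that 0 is the level of a fairly bright probe. A difference is the mean level in testes minus that in ovaries, given with its standard error (SE) from limma, and levels of different genes are not compared because probes differ in brightness. A gene was called where the Benjamini-Hochberg adjusted p of limma, over all genes tested, was under 0.05 and the change was at least 1.5-fold. Nothing in the labels beyond the single pair of gonads per array says how litters were drawn, so that p-values measure the spread between these samples.

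The 3 testes were closer to each other than the 3 ovaries were. Pairwise correlations ran from 0.990 to 0.994 among testes and from 0.976 to 0.981 among ovaries. They were taken over 18637 genes with a value on every array, X and Y included. The median SD of an autosomal gene was 0.13 in testes and 0.20 in ovaries. Control ovary 1 was the dimmest array, with 59.3% of spots well above background against 66.9 to 71.0% on the other 5, and no spot was saturated on any of the 6. The 3 testes and control ovary 1 shared a slide, slide 1, and control ovaries 2 and 3 lay on slide 2. Sex and slide are thus partly confounded, and within slide 1 the contrast rests on control ovary 1 alone, which was also the ovary with the genotype of the testes. Control ovary 3 stood apart from the other gonads in genes of skeletal muscle, and control ovary 1 lay nearer to the testes than the other ovaries in genes of pluripotency. Counts that these arrays move by more than 1.5 times are given with and without them.

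Among the 17756 autosomal genes, 6012 were called (33.9%), of which 3100 were higher in testes (17.5%) and 2912 were higher in ovaries (16.4%). Differences of over 2-fold were found in 1706 called genes higher in testes and 1620 higher in ovaries, and differences of over 4-fold in 589 and 501. The median difference over all autosomal genes was 0.02, with quartiles at -0.41 and 0.46. The levels of the 2 groups did not overlap for 58.4% of the tested genes, with testes above every ovary for 30.3% and ovaries above every testis for 28.1%. By chromosome, the share called ran from 29.8% on chromosome 16 to 37.0% on chromosome 18. Of the called genes, 549 were above background on some but not all arrays of a group, so that the size of their difference is less certain. Those named below include *Lhx8*, *Rhag* and *Synpo2*, above background in 1 of 3 testes, *Irx3*, in 2 of 3 testes, *Nanos3*, in 1 of 3 ovaries, and *Sox10*, *Defb36*, *Mc2r* and *Nlrp14*, in 2 of 3 ovaries. These shares are the background for the counts by lineage and function.

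The defining genes of Sertoli cells were higher in testes. *Sox9*, the transcription factor that commits supporting cells to the Sertoli fate, stood at 0.10, 0.05 and -0.14 in control testes 1, 2 and 3 and at -3.54, -2.78 and -2.86 in control ovaries 1, 2 and 3. *Amh*, the hormone that removes the Müllerian duct, stood at 1.33, 1.34 and 1.32 in the testes and at -4.96, -5.61 and -5.23 in the ovaries, where 1 of 3 arrays had it above background. *Dhh*, the Hedgehog ligand that Sertoli cells send to the interstitium, stood at 4.70, 4.66 and 4.47 in the testes and at -2.10, -1.97 and -1.96 in the ovaries. The testes lay above every ovary for these 3 genes, by 8.35-fold for *Sox9* (difference 3.06 ± 0.23, adjusted p = 2.7e-06), 96.4-fold for *Amh* (6.59 ± 0.19, adjusted p = 6.59e-09) and 98.3-fold for *Dhh* (6.62 ± 0.17, adjusted p = 4.11e-09). The *Amh* probe lies on chromosome 10 of mm9 from 80270208 to 80270267.

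Of 25 Sertoli cell genes tested, 23 were higher in testes, 1 was higher in ovaries and 1 was not called, with a median difference of 3.40 against 0.02 over all autosomal genes. The largest measured difference was in *Cst9*, a cystatin-type gene of fetal Sertoli cells, which stood at 6.05, 5.96 and 5.95 in the testes and at -0.98, -1.72 and -1.22 in the ovaries (157-fold, adjusted p = 4.36e-07). *Ptgds*, the prostaglandin D2 synthase that sustains *Sox9*, stood at 3.79, 3.76 and 3.91 in the testes and at -2.67, -2.78 and -2.56 in the ovaries (90.0-fold, adjusted p = 3.24e-09). *Hsd17b3*, which fetal Sertoli cells use to turn androstenedione into testosterone, was above background on every testis array and on no ovary array. For such a gene the fold is a lower bound, taken against the dimmest signal that counted as above background on each ovary array or the probe's own where that was higher, and it was at least 84.4-fold (adjusted p = 5.68e-07). *Dmrt1*, a DM-domain factor of Sertoli and germ cells, differed less, by 1.21 ± 0.41 (adjusted p = 0.032), and was not called within slide 1 or without control ovary 3. *Fgf9*, a Sertoli cell growth factor, was the gene not called, at -2.71, -2.75 and -2.95 in the testes and -4.03, -3.14 and -3.15 in the ovaries (adjusted p = 0.0965), and *Cst8*, a cystatin gene, was the one higher in ovaries (difference -0.85).

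**Figure D1:**
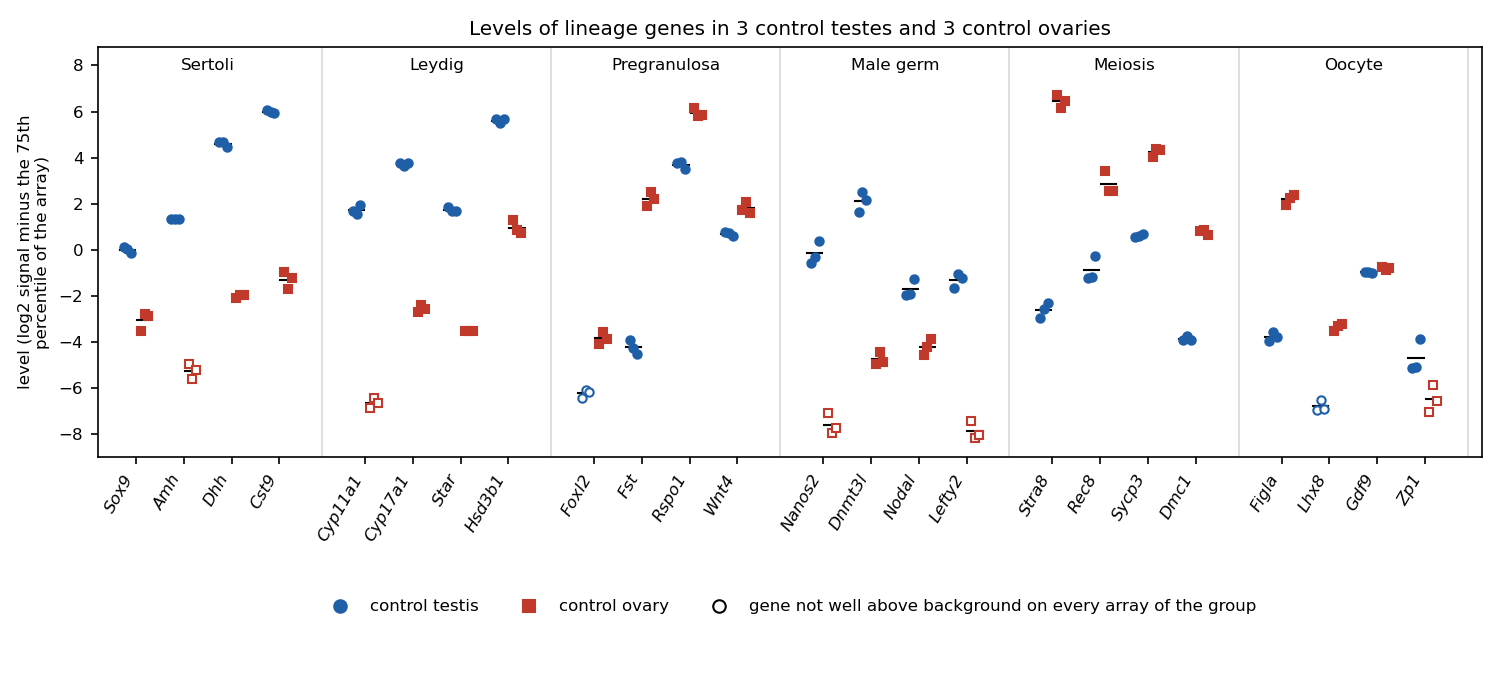
Level of 24 genes that define the gonadal lineages (log2 signal minus the 75th percentile of the array) in each control testis and control ovary, 1 point per array. For *Sox9*, *Amh*, *Dhh* and *Cyp17a1* the testes lie above every ovary, and for *Fst*, *Stra8*, *Dmc1* and *Figla* the ovaries lie above every testis.

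All 11 fetal Leydig cell genes tested were higher in testes, with a median difference of 4.47. The steroid enzymes moved together with the cholesterol carrier that feeds them. *Cyp11a1*, which cuts the side chain of cholesterol in the first step of steroid synthesis, stood at 1.67, 1.55 and 1.95 in the testes and at -6.87, -6.43 and -6.67 in the ovaries, where no array had it above background, which gave at least 158-fold (adjusted p = 2.14e-08). Its 3 probes all went the same way but differed in size, the smallest difference being 4.52, and 1 of them lies on chromosome 9 of mm9 from 57869600 to 57869659. *Cyp17a1*, which makes androgen precursors, stood at 3.77, 3.63 and 3.76 in the testes and at -2.70, -2.41 and -2.59 in the ovaries (78.0-fold, adjusted p = 4.11e-09). *Star*, which brings cholesterol to the inner mitochondrial membrane, stood at 1.88, 1.67 and 1.67 in the testes and at -3.51, -3.52 and -3.54 in the ovaries (38.5-fold, adjusted p = 6.59e-09). None of these genes overlapped between the groups, as was so for 5930 of the 6012 called genes. The smallest differences of the list were in the electron carriers *Fdx1* (1.79) and *Fdxr* (1.77), the ACTH receptor *Mc2r* (1.42) and the calcium sensor *Vsnl1* (1.29). *Insl3* was not analysed here.

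Between the cords, 11 of 19 genes of interstitial progenitors and of the Hedgehog and Notch responses were higher in testes and none was higher in ovaries (median 0.96). The direct targets of Hedgehog signalling led this list. *Hhip*, an inhibitor induced by Hedgehog ligands, stood at -0.59, -0.71 and -0.65 in the testes and at -5.39, -4.58 and -4.81 in the ovaries (19.4-fold, adjusted p = 5.14e-06). *Gli1*, a transcription factor of the pathway, differed by 3.60 ± 0.30 and the receptor *Ptch1* by 2.31 ± 0.27, with *Gli1* above background in 1 and *Ptch1* in 2 of the 3 ovaries. The homeobox gene *Lhx9* was not called (-0.51, adjusted p = 0.0042). Of 10 genes of smooth muscle and peritubular cells, 6 were higher in testes (median 1.30), led by the myosin kinase *Mylk* (2.06) and including *Lmod1* (1.87), *Cnn1* (1.54) and *Tagln* (1.44), while the actin-associated gene *Synpo2* was higher in ovaries (-1.89).

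The somatic cells of the ovary showed the opposite picture. Of 19 pregranulosa cell genes tested, 18 were higher in ovaries and none was higher in testes, with a median difference of -2.38. *Fst*, the activin antagonist follistatin, stood at -3.92, -4.26 and -4.54 in the testes and at 1.90, 2.52 and 2.18 in the ovaries (86.9-fold higher in ovaries, adjusted p = 1.4e-07). *Foxl2*, the forkhead factor of granulosa cells, stood at -6.43, -6.06 and -6.16 in the testes, where no array had it above background, and at -4.09, -3.55 and -3.88 in the ovaries, at least 3.97-fold higher (adjusted p = 1.77e-06). Its probe lies on chromosome 9 of mm9 from 98856287 to 98856346, and with normexp background correction its difference was -0.22 and not called (adjusted p = 0.885). *Rspo1*, the secreted factor that strengthens WNT signalling in the fetal ovary, stood at 3.76, 3.83 and 3.50 in the testes and at 6.17, 5.83 and 5.87 in the ovaries (4.79-fold, adjusted p = 7.75e-07). The groups were apart for these 3 genes as they were for *Wnt4*, the WNT ligand that antagonises the testis pathway, which stood at 0.77, 0.71 and 0.61 in the testes and 1.75, 2.08 and 1.602 in the ovaries (2.16-fold, adjusted p = 0.000413).

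Beside *Fst*, the pregranulosa list had large differences in *Gng13*, a G protein gamma subunit (-4.39 ± 0.42), the homeobox genes *Msx1* (-3.91 ± 0.25) and *Irx3* (-3.71 ± 0.34), and a smaller one in the ligand *Bmp2* (-1.90 ± 0.17). The WNT receptor *Fzd1* was the member not called (0.06). Of 12 genes of the gonadal soma of both sexes, 6 were higher in testes and 4 in ovaries (median 0.33, or 0.04 without control ovary 1). *Kitl*, the ligand on which germ cell survival depends, was higher in ovaries (-2.09 ± 0.20), as were *Emx2* (-1.74), *Wt1* (-1.19) and *Gata6* (-0.90), transcription factors that are needed to form the gonad of either sex. *Nr5a1*, the steroidogenic factor (1.47), and *Tcf21* (1.18) were higher in testes.

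**Figure D2:**
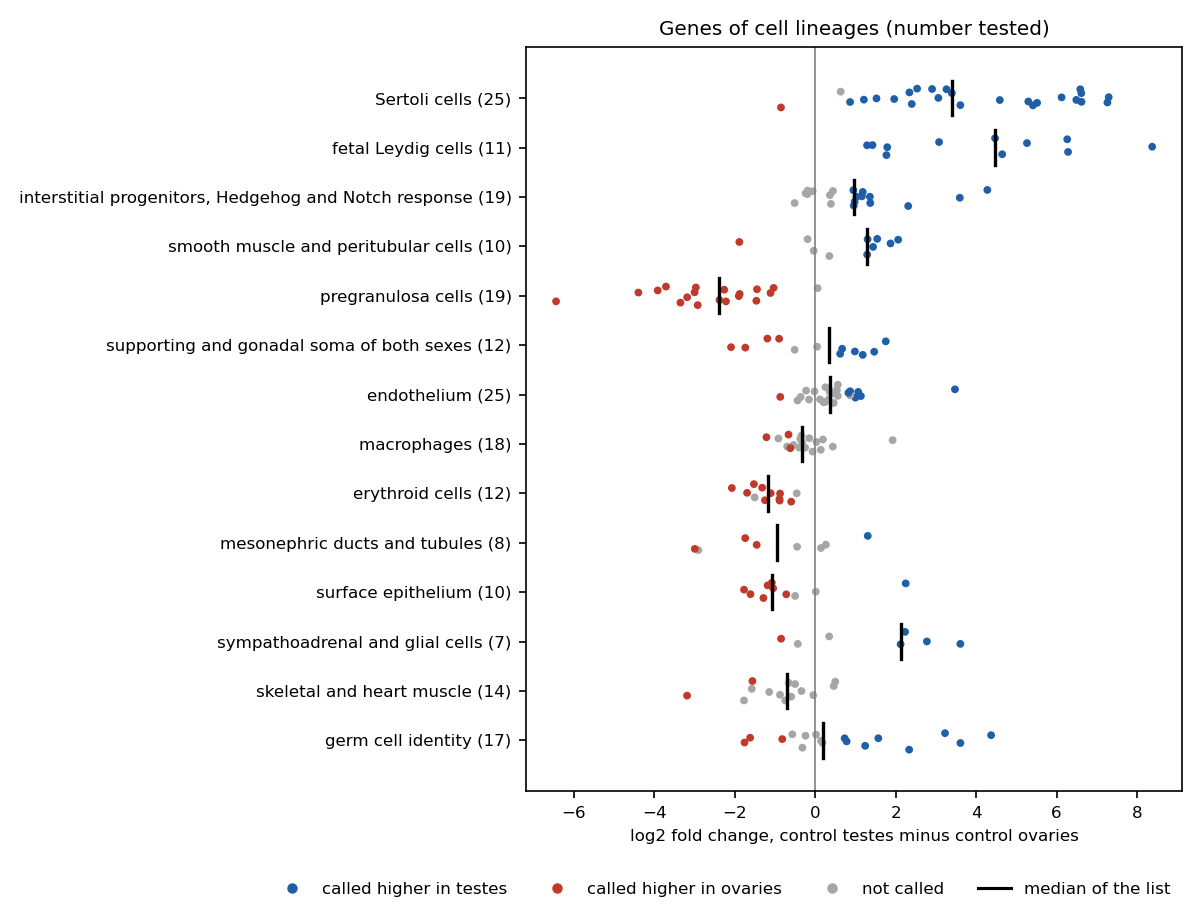
Difference between control testes and control ovaries (log2, testes minus ovaries) for each tested gene of the lineage lists, 1 point per gene, with the median of each list marked. Leydig cell genes all lie to the right of 0, and 18 of 19 pregranulosa genes were called to the left.

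Germ cells carried differences in both directions, and they were sorted by function. Among the germ cell lists, meiotic genes had the largest median shift. *Stra8*, the retinoic acid responsive gene needed for meiotic entry, had the largest difference of any autosomal gene measured in both sexes. It stood at -2.98, -2.56 and -2.32 in the testes and at 6.71, 6.16 and 6.46 in the ovaries, a 534-fold difference (-9.06 ± 0.18, adjusted p = 1.12e-09). All 6 arrays had the *Stra8* probe, on chromosome 6 of mm9 from 34889231 to 34889290, above background, and all 6 came from embryos with 1 functional copy of the gene.

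Of 31 genes of meiotic prophase, 27 were higher in ovaries and none was higher in testes, with a median difference of -3.63. The 2 groups of arrays did not overlap for these 27 genes, which held for 5930 of the 6012 called genes of any kind. *Dmc1*, the recombinase of meiosis, stood at -3.92, -3.75 and -3.91 in the testes and at 0.81, 0.88 and 0.65 in the ovaries (24.9-fold, adjusted p = 1.61e-08). *Sycp3*, a component of the axis of the synaptonemal complex, stood at 0.55, 0.61 and 0.71 in the testes and at 4.02, 4.39 and 4.34 in the ovaries (12.3-fold, adjusted p = 1.77e-07). *Rec8*, the meiotic cohesin subunit, stood at -1.21, -1.18 and -0.26 in the testes and at 3.43, 2.56 and 2.53 in the ovaries (13.2-fold, adjusted p = 4.85e-06). The SD within either sex was at most 0.54 for these 3 genes, the largest being that of *Rec8* in the testes, against gaps of 3.63 or more between the means.

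Other structural genes of prophase moved as far. *Sycp1*, the transverse filament of the synaptonemal complex, was 14.1-fold higher in ovaries (-3.81 ± 0.26) and *Hormad1*, which marks unsynapsed axes, 13.3-fold (-3.73 ± 0.16). *Meioc* (-6.31 ± 0.39), which keeps germ cells in the meiotic programme, *Mei1* (-6.67 ± 0.38) and *Meiob* (-6.00 ± 0.17), both needed for recombination, had still larger differences. *Terb1*, which tethers telomeres to the nuclear envelope, stood at 0.57, 1.66 and 1.56 in the ovaries and was above background in no testis, a difference of at least 137-fold (adjusted p = 4.98e-06). The members not called included *Psmc3ip* (-0.01) and *Mnd1* (0.57), which act in strand exchange, and *Trip13* (0.46), which remodels axis proteins. Without control ovary 1, 27 meiotic genes were still higher in ovaries and 2 became higher in testes.

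Genes of the oocyte were only in part shifted at this stage. Of 12 tested, 7 were higher in ovaries and 2 in testes (median -1.58). *Figla*, the helix-loop-helix factor of primordial follicle formation, stood at -3.98, -3.55 and -3.78 in the testes and at 1.96, 2.24 and 2.38 in the ovaries (62.2-fold, adjusted p = 4.01e-07). *Lhx8* (-3.44 ± 0.42), *Sohlh2* (-2.89 ± 0.24) and the translational regulator *Cpeb1* (-2.02) followed it. The genes of growing oocytes *Nobox* (-0.77), *Gdf9* (-0.17) and *Padi6* (-0.09) were not called. *Nlrp14* was higher in testes (3.41), and so was the zona pellucida gene *Zp1* (at least 1.83-fold).

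Most genes of male germ cell fate were higher in testes. *Nanos2*, which drives male differentiation and blocks meiosis, stood at -0.55, -0.32 and 0.40 in the testes and at -7.08, -7.94 and -7.75 in the ovaries, where no array had it above background, so that the difference was at least 43.0-fold (adjusted p = 5.6e-06). Its probe lies on chromosome 7 of mm9 from 19573771 to 19573830. *Dnmt3l*, the cofactor of de novo DNA methylation in male germ cells, stood at 1.65, 2.53 and 2.18 in the testes and at -4.95, -4.43 and -4.86 in the ovaries (117-fold, adjusted p = 7.6e-06). *Nodal*, a TGF-beta family ligand used by male germ cells, stood at -1.94, -1.92 and -1.26 in the testes and at -4.56, -4.22 and -3.86 in the ovaries (5.68-fold, adjusted p = 0.000486). In all, 9 of 13 genes of male germ cell fate were higher in testes and 1 in ovaries (median 2.51). The feedback inhibitors of NODAL signalling were also higher in testes, *Lefty2* by at least 19.3-fold and *Lefty1*, above background in 1 of 3 ovaries, by 7.34-fold (adjusted p = 0.00607). Among the 3 members not called were *Dnmt3b* (0.21) and *Id4* (-0.19), and the member higher in ovaries was the cell cycle inhibitor *Cdkn1b* (-1.13 ± 0.23).

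Pluripotency genes, which female germ cells shut down as they enter meiosis, were higher in testes for 8 of 14 members and in ovaries for none (median 1.24). *Pou5f1*, which encodes OCT4, stood at 0.84, 1.43 and 1.97 in the testes and at -0.24, -1.97 and -1.37 in the ovaries (6.09-fold, adjusted p = 0.000349). *Dppa4*, a chromatin protein of pluripotent cells, stood at 3.25, 3.64 and 3.81 in the testes and at -0.19, -2.07 and -1.59 in the ovaries (28.8-fold, adjusted p = 2.12e-05). Control ovary 1 was the highest of the ovaries for both genes and for *Utf1* (difference 3.64 ± 0.40). *Gdf3* (2.05) was fitted without control testis 2, whose spot was marked as an outlier. *Sox2* was not called, at -0.60, -0.87 and -0.02 in the testes and 0.25, -1.41 and -0.84 in the ovaries (adjusted p = 0.76), and its groups overlapped. Without control ovary 1, 10 of the 14 were higher in testes (median 1.54), and within slide 1, against control ovary 1 alone, 4 were (median 0.64).

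Genes that name germ cells of either sex split by gene. Of 17 tested, 8 were higher in testes, 3 were higher in ovaries and the median was 0.18. *Nanos3* (4.37 ± 0.39) and *Dnd1* (3.61 ± 0.46), which encode RNA-binding proteins needed for germ cell survival, and *Dppa3* (2.34), also called *Stella*, were higher in testes. The Cre driven by the *Stella* control element was carried by every testis but absent from control ovaries 2 and 3. For *Dppa3*, sex and this transgene cannot be told apart in those ovaries. *Dazl*, the translational regulator that licenses germ cells for sexual development, stood at 1.69, 1.74 and 2.14 in the testes and 3.56, 3.43 and 3.42 in the ovaries (3.07-fold higher in ovaries, adjusted p = 7.74e-06). *Ddx4*, the RNA helicase also called mouse vasa homologue, stood at 4.36, 4.51 and 4.605 in the testes and 5.33, 4.88 and 4.97 in the ovaries, and its difference of -0.57 was under 1.5-fold (adjusted p = 0.0116). The germ cell gene *Mael* (0.02) and the receptor *Kit* (-0.52, -0.56 and -0.52 in testes, -0.21, -0.95 and -0.87 in ovaries) were not called. Within slide 1, 5 of the 17 were higher in testes. The median of this list rests on single arrays, since it was 0.65 without control ovary 1 and 0.01 without control ovary 2.

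Among 19 genes of the piRNA pathway, which makes the small RNAs that silence transposons in male germ cells, 11 were higher in testes and 3 in ovaries (median 0.94). *Tdrd9*, an RNA helicase of the pathway, stood at 1.93, 2.43 and 2.04 in the testes and at -0.96, -0.997 and -0.67 in the ovaries (8.05-fold, adjusted p = 3.34e-06). *Tdrd1*, a Tudor protein that binds PIWI proteins, stood at 0.41, 0.69 and 0.46 in the testes and at -0.63, -1.56 and -0.95 in the ovaries (2.97-fold, adjusted p = 0.000888). *Piwil1* was above background in no ovary (at least 3.45-fold), *Morc1* differed by 3.92 and *Piwil2* by 0.94. The 3 Tudor-domain genes higher in ovaries were *Tdrkh* (-1.97), *Rnf17* (-1.76 ± 0.22) and *Tdrd7* (-0.97). Within slide 1, 7 of the 19 were higher in testes.

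The promoters of germ cell genes were read because many genes of a function moved together. RefSeq promoters on GRCm38.p6 were found for 11572 of the 17756 tested genes, and the 250 bases before the first listed start of each were searched on both strands for 7 short motifs. These were the E-box CACGTG, which is its own reverse complement, the E2F-type motif GCGGGA, the NF-Y motif CCAAT, the NR5A1 (also called SF1) motif AAGGTCA, the short motif CCTCAG, the sterol response motif TCACCCC and the SOX-type motif AACAAT. None of the motifs contains another. CACGTG was found in 8.16% of the promoters of all tested genes and in 6.05% of the 27018 promoters of the table. It was in 9.27% of the genes higher in testes and 6.73% of those higher in ovaries. Among the lists it was in 5 of 25 meiotic genes and in 7 of 16 piRNA pathway genes (43.8%). The meiotic genes were *Sycp1*, *Sycp3*, *Tex12*, *Hormad1* and *Stag3*, all higher in ovaries. Of the piRNA pathway genes, *Piwil1*, *Tdrd1* and *Tdrd9* were higher in testes, and *Ddx4* (-0.57), *Mael* (0.02), *Mov10l1* (-0.35) and *Fkbp6* (-0.24) were not called. Shown 5′ to 3′ up to the base before the gene start are 3 meiotic promoters and 3 piRNA pathway promoters with this hexamer, which is in capitals.
Sycp1: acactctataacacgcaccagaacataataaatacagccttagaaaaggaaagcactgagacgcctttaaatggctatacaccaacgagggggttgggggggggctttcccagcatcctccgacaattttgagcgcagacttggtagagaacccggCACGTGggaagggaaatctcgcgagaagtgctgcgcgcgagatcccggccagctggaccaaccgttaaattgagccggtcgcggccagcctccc
Sycp3: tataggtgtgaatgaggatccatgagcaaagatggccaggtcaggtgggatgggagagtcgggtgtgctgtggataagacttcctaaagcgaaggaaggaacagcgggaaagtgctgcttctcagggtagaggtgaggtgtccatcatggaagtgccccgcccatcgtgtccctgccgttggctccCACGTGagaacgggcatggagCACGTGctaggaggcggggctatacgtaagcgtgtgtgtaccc
Hormad1: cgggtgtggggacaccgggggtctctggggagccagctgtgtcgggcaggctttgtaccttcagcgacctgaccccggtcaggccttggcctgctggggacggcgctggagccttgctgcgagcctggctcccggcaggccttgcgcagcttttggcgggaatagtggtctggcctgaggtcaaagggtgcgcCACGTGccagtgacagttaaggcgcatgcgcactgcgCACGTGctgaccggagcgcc
Piwil1: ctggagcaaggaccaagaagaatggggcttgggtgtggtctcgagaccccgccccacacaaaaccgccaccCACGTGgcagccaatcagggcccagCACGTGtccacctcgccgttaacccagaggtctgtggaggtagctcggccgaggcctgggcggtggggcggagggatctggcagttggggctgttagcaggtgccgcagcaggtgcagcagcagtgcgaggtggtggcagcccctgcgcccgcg
Tdrd1: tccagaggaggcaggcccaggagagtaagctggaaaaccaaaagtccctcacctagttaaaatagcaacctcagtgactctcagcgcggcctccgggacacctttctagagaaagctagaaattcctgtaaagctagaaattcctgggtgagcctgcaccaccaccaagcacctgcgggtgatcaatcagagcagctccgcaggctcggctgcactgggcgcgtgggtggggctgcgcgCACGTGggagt
Tdrd9: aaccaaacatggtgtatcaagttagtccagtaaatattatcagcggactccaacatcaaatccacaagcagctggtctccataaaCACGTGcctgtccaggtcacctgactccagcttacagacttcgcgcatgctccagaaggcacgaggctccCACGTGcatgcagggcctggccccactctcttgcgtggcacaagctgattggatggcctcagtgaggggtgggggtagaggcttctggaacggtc
These windows are chr3:102936101-102936350 for *Sycp1* (minus strand), chr10:88459337-88459586 for *Sycp3* (plus strand), chr3:95559427-95559676 for *Hormad1* (plus strand), chr5:128735996-128736245 for *Piwil1* (plus strand), chr19:56825959-56826208 for *Tdrd1* (plus strand) and chr12:111971309-111971558 for *Tdrd9* (plus strand). The hexamer starts 94 bases before the start of *Sycp1*, 64 and 43 before *Sycp3*, 57 and 20 before *Hormad1*, 179 and 154 before *Piwil1*, 11 before *Tdrd1* and 165 and 95 before *Tdrd9*. A match is a description of these letters and not of a factor bound there. GCGGGA was found in 11 of 25 meiotic promoters (44.0%) against 28.6% of all tested genes, but also in 7 of 14 FGF promoters, 46.7% of proliferation and 42.9% of pregranulosa promoters. CCTCAG was in 24.0% of meiotic promoters against 22.4% of all tested genes. By call, CCTCAG was in 26.2% of genes higher in ovaries, 21.4% of those higher in testes and 21.6% of those not called. AAGGTCA was in 3 of 25 meiotic promoters against 3.02% of all tested genes, and AACAAT in none of 25 against 5.27%. The median GC content of the 250 bases was 58.8% for genes higher in testes and 60.2% for genes higher in ovaries.

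**Figure D3:**
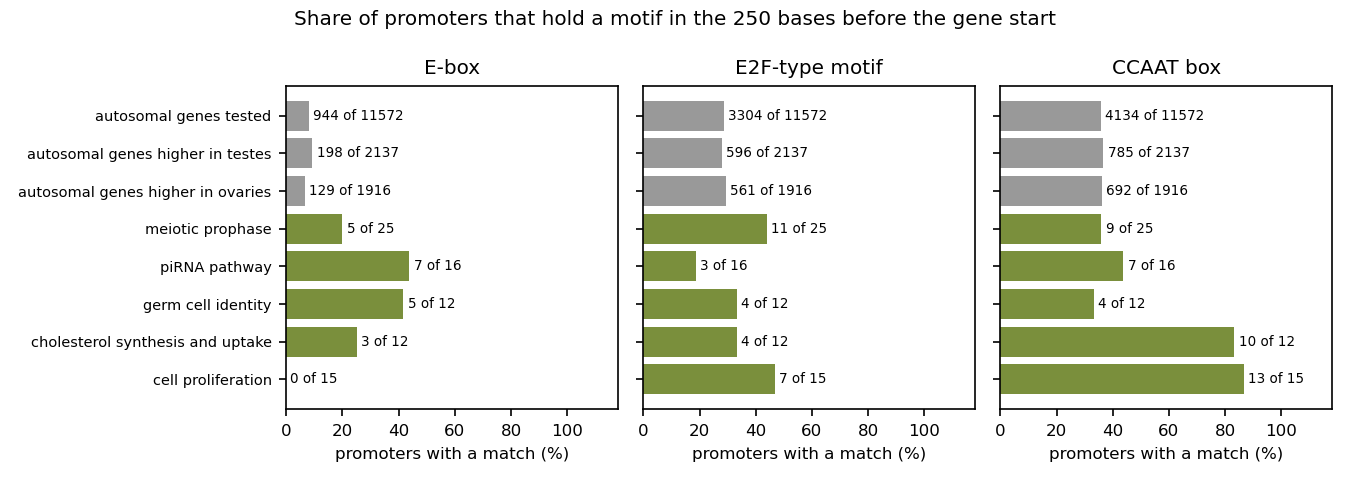
Share of promoters (percent) that hold the E-box CACGTG, the E2F-type motif GCGGGA or the NF-Y motif CCAAT in the 250 bases before the gene start, for all tested autosomal genes, the genes called in each direction and gene lists. CACGTG reaches 43.8% in the piRNA pathway and 41.7% in germ cell identity, which share genes, against 8.16% of all tested genes. CCAAT reaches 83.3% in cholesterol synthesis and 86.7% in cell proliferation against 35.7%.

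Retinoic acid genes were called at shares near the background in both directions, 17.6% of the list higher in testes against 17.5% of all tested genes and 23.5% higher in ovaries against 16.4%. *Cyp26b1*, the enzyme that degrades retinoic acid in the fetal testis, stood at 4.52, 4.22 and 4.02 in the testes and at -1.69, -0.97 and -0.93 in the ovaries (43.7-fold, adjusted p = 6.25e-08). *Aldh1a1*, a retinaldehyde dehydrogenase, stood at 6.35, 6.40 and 6.55 in the testes and 4.34, 3.87 and 4.10 in the ovaries (5.03-fold, adjusted p = 1.62e-06). The carrier *Rbp4* was higher in testes as well (0.79). Higher in ovaries were the binding protein *Crabp1* (-1.34 ± 0.16), the receptor *Rarb* (-1.06 ± 0.22), the synthesis enzyme *Aldh1a2* (-0.84) and the retinol dehydrogenase *Rdh10* (-0.78). This made 3 of 17 genes higher in testes and 4 in ovaries (median 0.31). Within slide 1, 7 were higher in testes and 4 in ovaries, and without control ovary 1 the counts were 2 and 4 and the median was -0.05, so that the sign of the list's median rests on that array.

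Of 24 genes of BMP, activin and TGF-beta signalling, 7 were higher in testes and 8 in ovaries (median -0.01). The subunits of inhibin and activin were higher in testes. *Inhba*, the beta A subunit, stood at 4.28, 4.16 and 4.33 in the testes and at -1.93, -1.03 and -0.22 in the ovaries (39.8-fold, adjusted p = 2.98e-06). *Inha*, the alpha subunit that turns activin into inhibin, stood at 2.80, 2.69 and 3.12 in the testes and at -0.996, -1.20 and -1.44 in the ovaries (16.9-fold, adjusted p = 2.82e-07). *Inhbb* differed by 1.96, and the BMP antagonist *Grem1* (at least 2.36-fold) was higher in testes too. Higher in ovaries were the activin antagonist *Fst*, the ligand *Bmp2* and the BMP responsive genes *Msx1*, *Gata2* (-2.23) and *Id1* (-0.99). Within slide 1, 11 of the 24 were higher in testes and 6 in ovaries (median 0.09), and without control ovary 3 the counts were 8 and 7 (median 0.03).

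WNT genes leaned towards the ovary, with 12 of 28 higher in ovaries and 4 higher in testes (median -0.33). Of those higher in ovaries, *Wnt4*, *Rspo1*, *Wnt9a*, *Lgr5*, *Axin2*, *Lef1*, *Sp5* and *Nkd1* are also in the pregranulosa list. They are counted in both lists, so this lean is not separate from that of the pregranulosa genes. The members higher in ovaries included the ligands *Wnt4* and *Rspo1*, described above, *Wnt9a* (-2.22) and *Wnt2b* (-1.61), as well as receptors, targets and feedback regulators. *Lgr5*, a receptor for R-spondins, stood at -0.74, -0.66 and -0.83 in the testes and at 2.15, 2.27 and 2.11 in the ovaries (7.57-fold, adjusted p = 3.2e-08). *Axin2*, a feedback inhibitor, stood at -1.03, -1.29 and -1.26 in the testes and 0.30, 0.87 and 0.88 in the ovaries (3.67-fold, adjusted p = 5.06e-06). The transcription factor *Sp5* (-3.18) and the ubiquitin ligase *Rnf43* (-2.91) were higher in ovaries too. The 4 higher in testes were the non-canonical ligand *Wnt5a* (1.31), *Dkk3* (1.18), the WNT inhibitor *Dkk1* (1.11) and the receptor *Fzd2* (0.76). Of 18 FGF pathway genes, 6 were higher in testes and 1 in ovaries (median 0.42), with the feedback and target genes *Etv4* (1.56), *Spry1* (1.42) and *Dusp6* (1.36) and the ligand *Fgf10* (at least 3.10-fold) in the testis and the receptor *Fgfr2* (-1.30) in the ovary. The FGF count higher in testes was 2 with normexp background correction, 9 with the brightest probe of each gene and 10 with slide as a block.

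**Figure D4:**
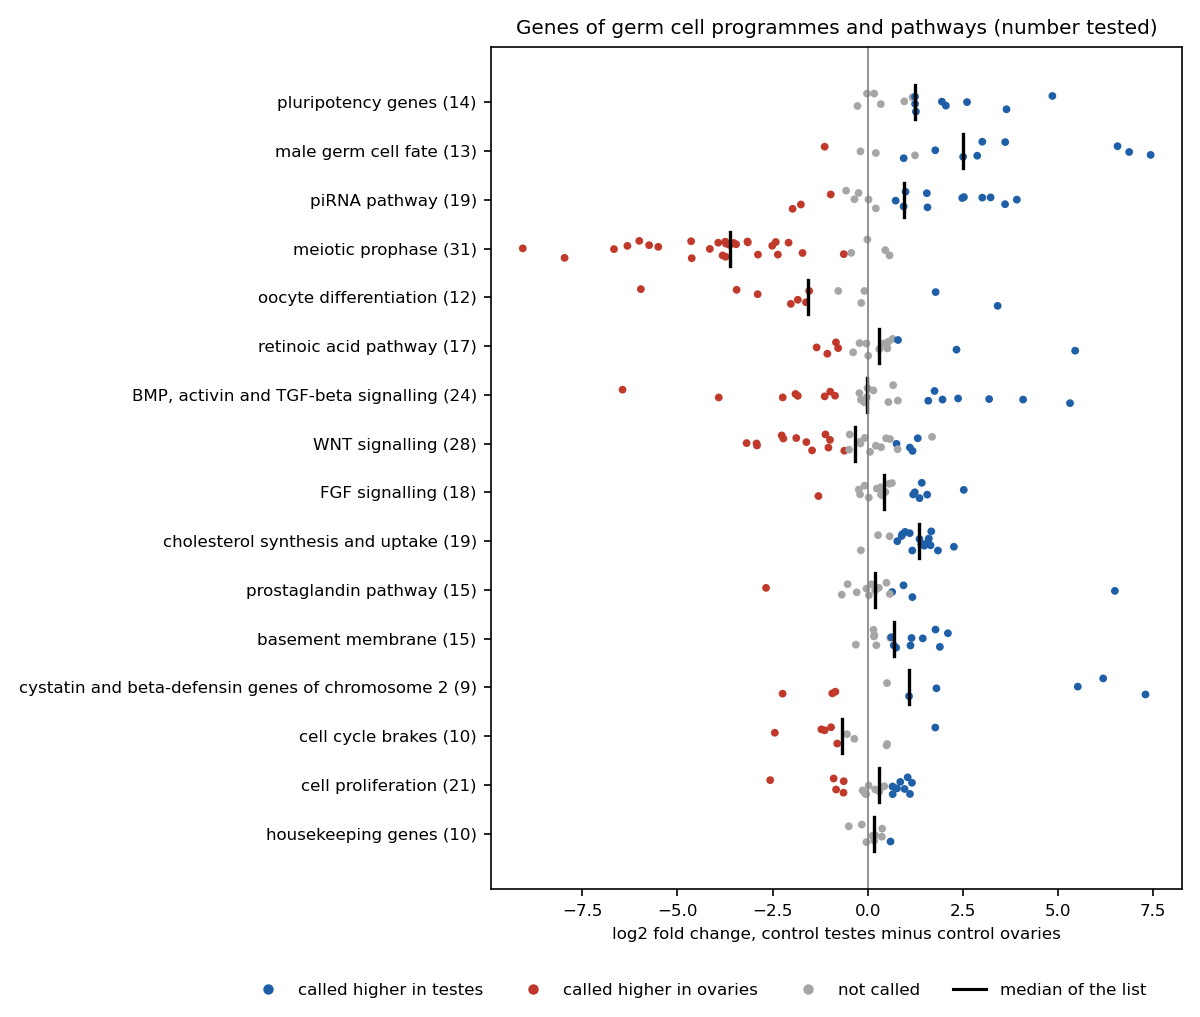
Difference between control testes and control ovaries (log2, testes minus ovaries) for each tested gene of the signalling and function lists, 1 point per gene, with the median of each list marked. Cholesterol synthesis has 15 of 19 genes called to the right of 0, and WNT signalling has 12 of 28 called to the left.

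Cholesterol synthesis and uptake, which supply steroid-making cells, had 15 of 19 genes higher in testes and none higher in ovaries (median 1.36). *Fdft1*, squalene synthase, stood at 2.50, 2.76 and 2.94 in the testes and at 0.72, 0.52 and 0.18 in the ovaries (4.80-fold, adjusted p = 2.2e-05). *Lss*, lanosterol synthase, stood at -1.12, -0.87 and -0.66 in the testes and at -2.72, -2.22 and -2.66 in the ovaries (3.14-fold, adjusted p = 1.6e-05). *Sc5d*, a late desaturase, stood at 0.41, 0.27 and 0.29 in the testes and at -0.49, -3.08 and -0.47 in the ovaries, and control ovary 2 lay far below the other ovaries (difference 1.67 ± 0.56, adjusted p = 0.0299, not called within slide 1). *Hmgcs1* was not analysed here. Of 12 promoters of this list in the table, 10 held CCAAT (83.3%) against 35.7% of all tested genes, and none held TCACCCC, against 4.58%. CCAAT was as frequent in the promoters of cell proliferation genes, at 13 of 15 (86.7%). The promoters of *Lss*, *Sc5d* and *Mvd*, mevalonate decarboxylase (3.04-fold higher in testes), are shown with CCAAT or its reverse complement ATTGG in capitals.
Lss: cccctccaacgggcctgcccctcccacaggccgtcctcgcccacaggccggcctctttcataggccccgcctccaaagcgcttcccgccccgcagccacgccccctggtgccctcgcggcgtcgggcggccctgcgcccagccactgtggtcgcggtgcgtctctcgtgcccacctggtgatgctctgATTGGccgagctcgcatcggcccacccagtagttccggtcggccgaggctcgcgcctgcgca
Sc5d: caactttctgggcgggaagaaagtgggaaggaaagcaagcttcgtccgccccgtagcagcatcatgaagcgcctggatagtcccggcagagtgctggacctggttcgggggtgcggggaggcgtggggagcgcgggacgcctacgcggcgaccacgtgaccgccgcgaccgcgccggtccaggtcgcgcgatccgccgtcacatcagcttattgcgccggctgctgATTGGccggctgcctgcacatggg
Mvd: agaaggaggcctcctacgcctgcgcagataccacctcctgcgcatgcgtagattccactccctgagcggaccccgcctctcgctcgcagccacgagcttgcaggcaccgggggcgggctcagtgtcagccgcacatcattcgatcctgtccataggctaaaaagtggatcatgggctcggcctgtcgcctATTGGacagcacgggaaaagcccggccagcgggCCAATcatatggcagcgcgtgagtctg
These windows are chr10:76531355-76531604 for *Lss* (plus strand), chr9:42264301-42264550 for *Sc5d* (minus strand) and chr8:122443423-122443672 for *Mvd* (minus strand) of GRCm38.p6.

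Other functions moved less evenly. Basement membrane genes were higher in testes for 9 of 15 members and in ovaries for none (median 0.68), with the laminin *Lama2* (2.11 ± 0.14) and the collagen IV genes *Col4a1* (1.89) and *Col4a2* (1.78) at the head. Of 15 prostaglandin genes, 4 were higher in testes and 1 in ovaries (median 0.20), and beside *Ptgds* these included the PGE2 synthase *Ptges* (1.17) in the testis and the receptor *Ptger3* (-2.67 ± 0.13) in the ovary. In the cystatin and beta-defensin cluster of chromosome 2, 5 of 9 genes were higher in testes and 3 in ovaries (median 1.08, or 0.86 with bounds), with *Cst9*, *Defb36* (6.19) and *Defb19* (5.52) against *Cst12* (-2.24), *Cst13* (-0.93) and *Cst8*. Within slide 1, 3 of the 9 were higher in testes.

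Of 10 inhibitors of the cycle, 5 were higher in ovaries and 1 in testes (median -0.67). *Cdkn1c*, the imprinted inhibitor p57, stood at 3.78, 3.15 and 2.95 in the testes and at 5.23, 5.96 and 6.01 in the ovaries (5.43-fold, adjusted p = 4.66e-05). *Cdkn2a* (-1.22), *Cdkn1b* and *Cdkn1a* (-0.96) were higher in ovaries too, and *Cdkn2b* was higher in testes (1.77). Of 21 proliferation genes, 8 were higher in testes and 5 in ovaries (median 0.31), with the mitotic genes *Ccnb1* (1.16), *Cdk1* (1.11) and *Plk1* (1.05) in the first group and the S-phase cyclin *Ccne2* (-2.56), the spindle checkpoint kinase *Bub1* (-0.90) and the topoisomerase *Top2a* (-0.63) in the second. The proliferation marker *Mki67* was not called (0.43). Without control ovary 1, 8 were higher in testes and 2 in ovaries. Of 10 housekeeping genes, *Gapdh*, a glycolytic enzyme, was called (difference 0.60 ± 0.16, not called within slide 1 or without control ovary 3), and the median was 0.16.

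Cells that are not particular to the gonad differed by list. Endothelial genes were called in a minority, with 6 of 25 higher in testes and 1 in ovaries (median 0.36). *Vwf*, von Willebrand factor, stood at 1.31, 1.82 and 1.57 in the testes and at -2.12, -1.52 and -2.08 in the ovaries (11.1-fold, adjusted p = 3.61e-06), whereas the pan-endothelial markers *Pecam1* (0.21) and *Cdh5* (0.36) were not called. The arterial ligand *Dll4* (1.14) and the TGF-beta co-receptor *Eng* (1.07) were higher in testes, and the VEGF receptor *Kdr* was higher in ovaries (-0.87). Of 18 macrophage genes, 3 were higher in ovaries (16.7%, near the background of 16.4%) and none in testes (median -0.33), namely *Cd14* (-1.21), *Cd163* (-0.66) and *C1qc* (-0.62), and the receptor *Csf1r* was not called (0.19). Without control ovary 1 *Cd14*, *Cd163* and *C1qc* all lost their call, as they did without control testis 3, and without control testis 1 or control ovary 3 the list had 1 gene called each way. Within slide 1, 9 of the 25 endothelial genes were higher in testes.

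Red cell genes were higher in ovaries for 10 of 12 members and in testes for none (median -1.18). *Hemgn*, a nuclear protein of erythroid cells, stood at -4.18, -3.05 and -3.30 in the testes and at -1.13, -1.47 and -1.71 in the ovaries (4.20-fold, adjusted p = 0.0176), and *Rhag* (-1.69), *Kel* (-1.52) and *Epb42* (-1.32), of the red cell membrane, went with it. *Hemgn* was not called without control ovary 1 or within slide 1. The embryonic globin *Hbb-y* (-0.89) was fitted without control ovary 2, whose spot was marked as an outlier. Within slide 1, 5 of the 12 were higher in ovaries, 4 were with slide as a block, 5 were in the deposited values without scaling, and 2 were with normexp background correction. The part of blood in other differences was not tested.

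Lists of the mesonephros, the surface epithelium and sympathoadrenal and glial cells each had genes called in both directions. Of 8 genes of the mesonephros, 3 were higher in ovaries and 1 in testes (median -0.95), with *Gata3*, a factor of the duct, at -2.60, -2.61 and -3.29 in the testes and -0.31, 0.28 and 0.51 in the ovaries (7.96-fold, adjusted p = 3.05e-06), while *Pax2* was not called (0.27). *Cdh16*, a cadherin of tubules, stood at -4.15, -2.84 and 0.62 in control ovaries 1, 2 and 3 and was not called (adjusted p = 0.0677). Surface epithelial genes were higher in ovaries for 7 of 10 members and in testes for 1 (median -1.06), led by the keratin *Krt18*, at 2.59, 2.66 and 2.55 in the testes and 4.45, 4.41 and 4.25 in the ovaries (3.41-fold, adjusted p = 3.44e-06), while *Cdh1*, E-cadherin, was higher in testes (2.25). The study used E-cadherin as a germ cell marker, so the rise of *Cdh1* in testes does not mark surface epithelium alone. Of 7 sympathoadrenal and glial genes, 4 were higher in testes and 1 in ovaries (median 2.12, or 0.45 with bounds in place of fitted values). *Sox10*, a neural crest factor, stood at -0.59, -0.63 and -0.78 in the testes and -5.20, -3.75 and -3.88 in the ovaries (adjusted p = 0.000256). *Sox10* is also a member of the Sertoli cell list, so its rise in testes does not mark neural crest tissue alone.

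Genes of skeletal and heart muscle, which a dissected gonad should lack, set control ovary 3 apart. The mean level of 14 such genes was 1.66 in control ovary 3 against -2.15 and -1.34 in control ovaries 1 and 2 and -1.86 to -1.20 in the testes. *Myl1*, a fast muscle myosin light chain, stood at -3.64, -1.77 and -2.30 in the testes and at -1.68, 0.02 and 3.49 in the ovaries, and *Myl1* and *Myh8* (-1.56) were the 2 of 14 called higher in ovaries (median -0.70). Without control ovary 3, 5 of the 14 were higher in testes and 1 in ovaries and the median was 0.41, and without control ovary 1, 4 were higher in ovaries (median -1.62), while within slide 1 the median was 0.68, so that no direction of this list was kept. The part of this tissue in other differences was not tested, but counts over all autosomal genes without control ovary 3 are given with the other alternatives.

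**Figure D5:**
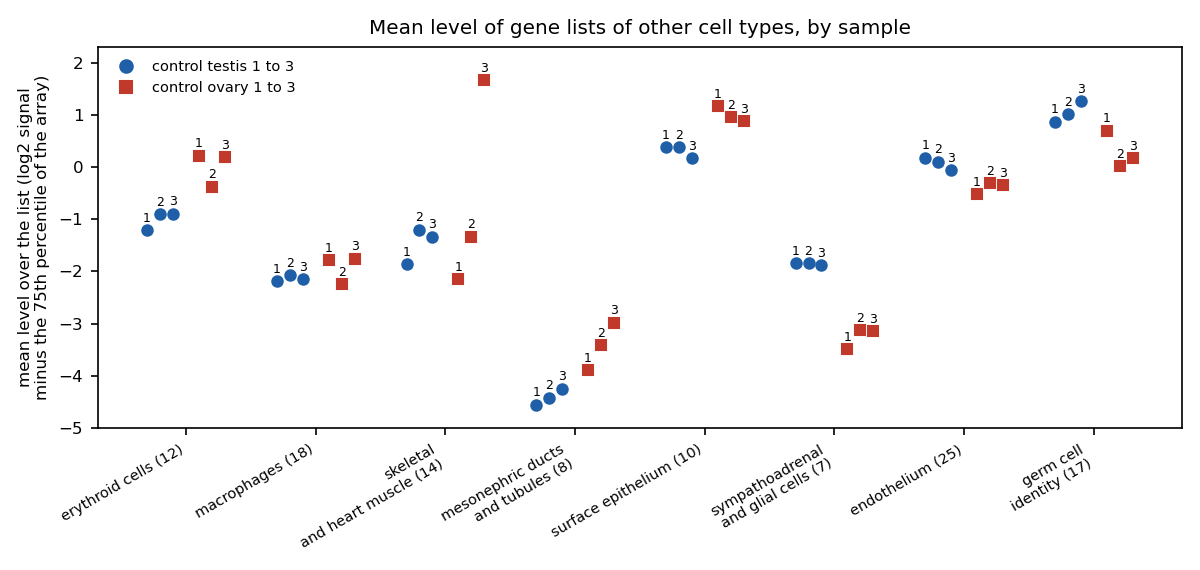
Mean level (log2 signal minus the 75th percentile of the array) of the tested genes of 8 lists of other cells and tissues in each control testis and control ovary, 1 point per array. Control ovary 3 lies at 1.66 in muscle genes, with the other 5 gonads between -2.15 and -1.20.

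The largest differences outside the lists named further genes. Higher in testes were *Sostdc1*, a secreted antagonist of BMP and WNT signalling, at 3.72, 3.14 and 3.53 in the testes and -4.65, -3.22 and -2.11 in the ovaries (111-fold, adjusted p = 1.9e-05), *Drc1*, of the axoneme of cilia (78.0-fold), *Egr4*, an early response transcription factor (77.8-fold), and *Adh1*, an alcohol dehydrogenase that can oxidise retinol (71.0-fold). The chemokine *Ccl17* (at least 31.1-fold) and *Elapor1* (at least 55.2-fold) were above background in no ovary. Higher in ovaries were *Stum* (78.4-fold), *Inca1*, an inhibitor of cyclin-dependent kinase (71.3-fold), *M1ap*, a gene of male meiosis (62.4-fold), *Reg2*, of a family of secreted lectins (51.8-fold), and *Meltf*, an iron-binding transferrin relative (43.4-fold). The homeobox gene *Cdx2* (at least 33.8-fold) and the soluble adenylyl cyclase *Adcy10* (at least 32.96-fold) were above background in no testis. Lack of overlap between the groups was part of the rule that chose most of these genes, and it held for 5930 of the 6012 called genes.

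The 6 mutant ovaries of the series, which entered the filter and the spread of the fit but not the contrast, allow a wider comparison of levels. Of the 3100 genes higher in testes, 2280 were also above every one of the 9 ovary arrays, control and mutant, and of the 2912 higher in ovaries, 1867 were above the testes on all 9 ovary arrays. Over all tested genes these patterns were found in 18.2% and 14.9%. The 9 arrays include the 3 control ovaries that made the calls. Among the 5378 tested genes with testes above every control ovary, called or not, 3229 were above all 9 ovary arrays. Among the 4996 with every control ovary above the testes, 2640 had all 9 ovary arrays above. The mutant ovaries differ in germ cell genotype from the controls, and their own comparisons are not described here.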

How the data were processed

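The arrays were single-colour Agilent whole mouse genome arrays scanned by the authors and quantified with Agilent Feature Extraction 11.0.1.1, the version given in the headers of the scanner files. The deposited values were intensity per spot in the scanner files, with background subtracted by that software, and the deposited value table held the same processed intensity without scaling between arrays. From the scanner files, processed signals were put on a log2 scale here and each array's 75th percentile, taken over its 43379 non-control spots (of 45018), was subtracted. Spots marked as outliers were dropped, repeated spots were averaged per probe, and probes above background on all arrays of at least 1 of the 4 groups were kept (27311 of 41174), so that a gene could pass through the group where it was high. Probes of a gene were averaged. By the mm9 coordinates of the array files, 39196 probes lay on autosomes, 1500 on X or Y and 478 elsewhere or nowhere. Symbols of RefSeq genes were matched to 31793 probes, and 9381 kept the array's own name. Of 6010 genes with several probes, 78 had probes that went opposite ways by at least 1.5-fold, none of them listed or named here.

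A linear model over the 4 groups of the series was fitted across all genes with limma 3.58.1 in R 4.3.3, without a replicate or slide block, and adjusted by Benjamini-Hochberg over all genes tested. Tables and figures were made with data.table (version 1.17.8), Python 3.11.15, pandas 2.3.3, numpy 2.4.6 and matplotlib 3.10.9. The number of arrays, 3 against 3, limits the precision. Same-numbered testes and ovaries did not deviate together (r = -0.18, -0.04 and -0.12), so numbers were not taken as pairs. The fit was tested on simulated data with normal noise of each gene's own spread. Of 100 genes changed by a log2 of 1, 69 were called, and of 100 changed by a log2 of 2, 87 were called. There were 7 false calls among 18637 genes. A gene not called can therefore still differ.

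The samples compared, the gene lists and the motifs were chosen with earlier results of these data known. Genes were named by rule: the 12 largest rises and the 12 largest falls measured on both sides without overlap, the 5 largest lower bounds each way, up to 4 called genes per list and direction, and the defining genes of each lineage. Further list members, such as those not called, those whose promoters are printed and neighbouring genes, were named after their values were seen. Promoter sequences are those of RefSeq on GRCm38.p6, a different build from the array's, and promoters of some genes were not used here. Alternatives were quantile scaling, the deposited table, another background correction, other thresholds and filters, blocks, leaving out each array and the methods' t-test. List counts without control ovary 1 or 3 and within slide 1 were added after seeing the data. Results of a few listed genes are not reported here.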

Additional observations from a re-analysis of the deposited data

How the results depend on the processing

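The counts of genes higher in testes and higher in ovaries (3100 and 2912) stayed within 1.5 times under most alternatives. They were 3238 and 2888 with quantile normalization, 2856 and 3082 with no filter on dim probes, 3148 and 2930 with the brightest probe of each gene, 3092 and 2924 with the 6 control arrays alone, 4377 and 4086 by the adjusted p of limma alone, and 2536 and 2572 over genes above background on all 6 arrays. With slide as a block they were 3292 and 2666, and within slide 1 they were 3156 and 2586, with the lone control ovary 1 assumed to vary like the other groups. The methods' t-test gave 2565 and 2516 after Benjamini-Hochberg adjustment and 2991 and 2847 at an unadjusted p under 0.05, both with the 1.5-fold threshold. The counts fell to 1706 and 1620 at 2-fold, to 1891 and 1590 from the deposited table, whose arrays are not scaled to each other, and to 1323 and 1182 with normexp background correction, which also moved the median over all autosomal genes from 0.02 to 0.13. Of the genes called with normexp, 1310 and 1145 were called the same way in the main analysis. Leaving out 1 array at a time gave 2802 to 3183 genes higher in testes and 2694 to 3123 higher in ovaries.

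With the replicate number as a block the counts were 3074 and 2905. The labels do not say that a number marks a litter or day, and deviations of same-numbered samples correlated at -0.18, -0.04 and -0.12, so this pairing was not taken as real. No testis correlated best with the ovary of its own number (control testis 1 with ovary 3 at 0.14, 2 with ovary 1 at 0.08, 3 with ovary 1 at 0.13).

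Of 179 named genes, 121 kept their call in every alternative in which they were tested. Only 144 of them were tested in the alternative limited to genes above background on all 6 arrays. Of 2829 values 2653 kept direction and call, 165 lost the call, 10 gained it and 1 reversed. The reversal was *Cd163*, with a difference of 0.13 under normexp (adjusted p = 0.946) against -0.66. Normexp ended 45 calls, among them *Foxl2* (-0.22, adjusted p = 0.885), *Gli1*, *Ptch1*, *Lhx8*, *Piwil1*, *Fgf10*, *Rarb* and *Crabp1*. Within slide 1, 20 calls were lost, among them *Cdkn1b*, *Dmrt1*, *Gdf3*, *Gata6*, *Dkk1*, *Hemgn*, *Kel*, *Cd14*, *Kdr* and *Sc5d*. The cause was not tested. By list, normexp called 18 of 25 Sertoli, 8 of 11 Leydig, 15 of 19 pregranulosa and 23 of 31 meiotic genes in the direction reported, but 2 of 12 red cell genes and 6 of 19 interstitial genes, and it turned the median of the mesonephric list to 0.03.

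The 2 groups of 3 arrays limit the precision, more so among the ovaries, and probes near background have uncertain fold changes.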

Other observations

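Among tested autosomal genes in order along mm9, 308 runs of at least 3 neighbours were called in 1 direction, 170 of them higher in testes and 138 higher in ovaries, and 11 runs held 6 or more. The runs named here were chosen after their values were seen, so they are descriptions, the number of runs that the called shares alone would give was not computed, and some runs hold several array entries of 1 locus. The longest, of 10 entries on chromosome 17, held class I histocompatibility genes that were higher in ovaries, among them *H2-D1* (4.14-fold) and *H2-Q7* (4.41-fold). These genes are near-identical copies whose probes can cross-hybridise, so the members cannot be counted as separate. On chromosome 3, 5 glutathione transferases of the mu class, enzymes of detoxification, were higher in testes, *Gstm1* 3.08-fold, *Gstm2* 1.58-fold, *Gstm3* 2.87-fold, *Gstm6* 3.66-fold and *Gstm7* 3.12-fold. On chromosome 8, *Irx3* (13.1-fold), *Crnde* (3.94-fold) and *Irx5* (10.2-fold) were higher in ovaries, with *Irx3* and *Irx5* above background in 2 of 3 testes, which leaves the size of their difference less certain.

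On chromosome 1, *Gsta3*, another glutathione transferase (4.26-fold), and the KH-domain gene *Khdc1a* (67.1-fold) were higher in testes. *Khdc1a* stood at 2.19, 1.74 and 2.29 in the testes and at -2.54, -4.90 and -4.55 in the ovaries, where control ovary 1 was the highest. On chromosome 17 the gonadotropin receptors *Lhcgr* and *Fshr* (8.79-fold) lay in 1 run higher in testes. Both *Lhcgr* and *Fshr* were above background in only 1 of 3 ovaries, which leaves the size of their differences less certain. On chromosome 11 the chemokines *Ccl9* (3.94-fold), *Ccl6* (6.36-fold), *Ccl3* (2.94-fold) and *Ccl4* (7.94-fold) were higher in ovaries, where control ovary 1 was the highest for *Ccl9*, *Ccl6* and *Ccl4* and where *Ccl4*, above background in 1 of 3 testes, has the less certain size.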
